A study of Homo sapiens with 6 samples.

Results

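The Toll-like receptors and the signalling proteins that act directly behind them were followed in MEC-1 cells, a B cell line established from a case of chronic lymphocytic leukemia (CLL), after a knockdown of UGT2B17. The members are 10 genes chosen by symbol: the cell surface receptors TLR1, TLR2, TLR4, TLR6 and TLR10, the endosomal receptors TLR7 and TLR9, the adaptor MYD88, and the kinases IRAK1 and IRAK4. Of these, 8 had a probe set annotated to their symbol alone, out of 18404 genes compared, and each of the 8 had 1 such probe set. TLR10 and IRAK4 are not listed in the array annotation used here and were not analysed. The knockdown group was 3 arrays from MEC-1 cells given a short hairpin RNA (shRNA) that targets UGT2B17, an enzyme of steroid conjugation that adds glucuronic acid to androgens. The control group was 3 arrays from MEC-1 cells given a scrambled shRNA. Both groups received their shRNA by lentivirus and grew in RPMI medium with fetal calf serum and without phenol red or antibiotics. The series design text calls them 3 independent replicates per group. The labels name neither the number of hairpins against UGT2B17 nor separate clones or cultures, and a p-value here covers the spread between arrays alone. A change from lower UGT2B17, one from the hairpin acting elsewhere and one from unequal cultures cannot be told apart.

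Toll-like receptors are membrane proteins that bind microbial lipids, proteins or nucleic acids and signal through a cytoplasmic TIR domain. Most of them recruit the adaptor MYD88, which assembles the kinases IRAK4 and IRAK1. These activate the ubiquitin ligase TRAF6 and the kinase MAP3K7 with its TAB partners, and then NF-kappaB and interferon regulatory factors. Human B cells carry TLR1, TLR6, TLR7, TLR9 and TLR10, and CLL cells respond to nucleic acid ligands of the endosomal receptors.

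UGT2B17 itself, on a probe set that names no other gene, read 3.19, 3.27 and 3.17 log2 units in the knockdown arrays, against 3.95, 3.69 and 3.91 in the scrambled arrays. The groups did not overlap. The log2 fold change, here and throughout knockdown minus scrambled, was −0.64 ± 0.08 (SE; limma, adjusted p = 0.00654). Its probe set lay at percentile 1.98 of the genes by mean signal, a range where the summary method compresses fold changes. A signal this low lies near background, so these values alone cannot establish that the transcript was detected or how far it fell. Pearson correlations between pairs of arrays lay between 0.991 and 0.996, and scrambled replicate 3 deviated most from its group, with a root mean square of 0.166 log2 units against 0.117 to 0.142 for the other arrays. Of the 8 B cell markers, 7 were measured, and they lay between percentiles 80.6 and 99.6 of the genes by mean signal. The 10 markers of monocytes, macrophages and neutrophils lay between percentiles 0.837 for LYZ, which encodes lysozyme, and 46.8 for ITGAM, an integrin alpha chain.

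Among the receptors and their signalling partners, TLR1 fell in the knockdown, and no other member passed the test. The fit put 1 of the 8 lower and 0 higher (limma, Benjamini-Hochberg adjusted over all genes), and 7 did not pass. The test called 3.61% of all genes, 1.92% as higher and 1.69% as lower, so the call concerns a single gene and says little of the group. The median log2 fold change of the members was 0.06, against −0.0022 for all genes, and 5 of 8 members lay above 0, against 49.3% of all genes. At an unadjusted p under 0.05 there were 4 of 8 members, TLR1, TLR6, TLR7 and MYD88, against 18.2% of all genes. In the same 4 members the knockdown and scrambled arrays did not overlap: TLR1, TLR7 and MYD88 were lower and TLR6 was higher without overlap. This held for 24.8% of all genes, 13.1% lower and 11.8% higher. The members were chosen with earlier results of these data known, so these shares describe them and are not a test. In bulk RNA, fewer cells with a transcript and less of it in each cell cannot be told apart.

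**Figure D1:**
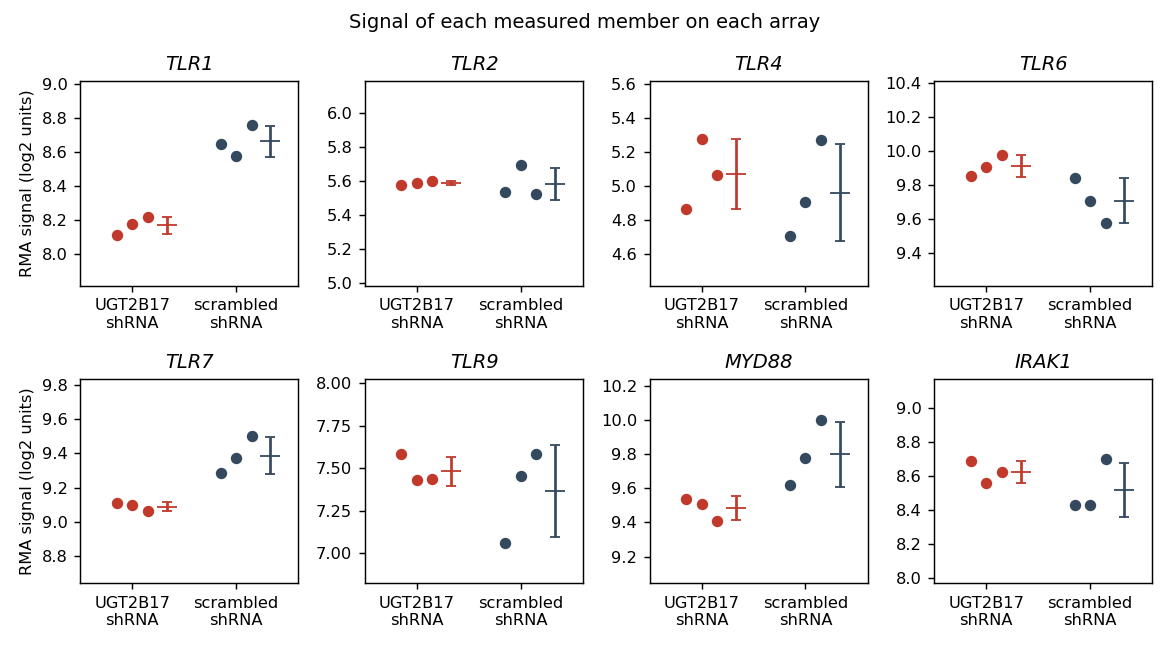
Signal of the 8 measured members in log2 units on each array, with 3 UGT2B17 shRNA arrays (red) left of 3 scrambled shRNA arrays (dark blue); bars give the mean ± SD, and each panel has its own range of the same height. TLR1 reads 8.12 to 8.22 in the knockdown arrays and 8.58 to 8.76 in the scrambled arrays.

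TLR1 pairs with TLR2 to bind triacylated bacterial lipopeptides. It read 8.12, 8.18 and 8.22 log2 units in the knockdown arrays, against 8.65, 8.58 and 8.76 in the scrambled arrays. Every knockdown array lay below every scrambled array, and the gap between the groups was wider than the spread within either. The means were 8.17 ± 0.05 in knockdown cells and 8.66 ± 0.09 in scrambled cells (SD, n = 3 each). TLR1 therefore had a log2 fold change of −0.49 ± 0.07 (SE; 95% interval −0.65 to −0.33), which leaves 71.1% of the scrambled signal (limma, adjusted p = 0.00984). Of all genes, 0.815% had a fold change as low or lower. The adjusted p was 0.0547 without knockdown replicate 1, 0.0573 without knockdown replicate 2 and 0.05004 when all deposited probe sets were tested, with fold changes of −0.46, −0.50 and −0.49.

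TLR6, which pairs with TLR2 for diacylated lipopeptides, lies next to TLR1 on chromosome 4 and is a close relative of it. It read 9.85, 9.91 and 9.98 log2 units in the knockdown arrays, against 9.84, 9.70 and 9.58 in the scrambled arrays. The groups did not overlap, but the lowest knockdown array and the highest scrambled array were nearly equal. Its log2 fold change was 0.20 ± 0.08 (SE), which did not pass (limma, adjusted p = 0.232). TLR1 and TLR6 were read on separate probe sets, 8099834 and 8099841, and whether either also bound transcripts of its relatives was not tested.

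The genes that flank these receptors were looked up after the values were seen. In the RefSeq order of protein-coding genes, KLF3, a zinc finger transcription factor, precedes TLR10, TLR1 and TLR6, and FAM114A1 follows them. FAM114A1 rose by 0.78 ± 0.09 log2 units (SE; limma, adjusted p = 0.00495) and KLF3 by 0.37 ± 0.08 (limma, adjusted p = 0.0452), while TLR1 between them fell. The call of KLF3 was lost without any 1 of knockdown replicates 1, 2 and 3 and scrambled replicates 2 and 3, with all single-symbol or all deposited probe sets and with the replicate number as a block, at adjusted p up to 0.178.

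TLR2, the shared partner of TLR1 and TLR6, was dim, at percentile 27.8 of the genes by mean signal. It read 5.58, 5.59 and 5.60 log2 units in the knockdown arrays, against 5.53, 5.69 and 5.52 in the scrambled arrays. All knockdown arrays fell within the range of the scrambled arrays. TLR2 had a log2 fold change of 0.01 ± 0.07 (SE; 95% interval −0.15 to 0.16), and its sign turned under several alternatives.

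TLR4, the receptor of bacterial lipopolysaccharide, was dimmer still, at percentile 19.7. It read 4.87, 5.28 and 5.07 log2 units in the knockdown arrays, against 4.71, 4.90 and 5.27 in the scrambled arrays. The groups overlapped over most of their range, and the 95% interval of the log2 fold change, −0.23 to 0.45, was the widest of the 8 members. At these signals a change in TLR2 or TLR4 may be compressed.

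TLR7 detects single-stranded RNA in endosomes. It read 9.11, 9.10 and 9.06 log2 units in the knockdown arrays, against 9.29, 9.37 and 9.50 in the scrambled arrays. The knockdown arrays lay close together and all below the scrambled arrays. The fold change was −0.30 ± 0.07 log2 units (SE; 95% interval −0.46 to −0.13) and did not pass (limma, adjusted p = 0.0606). It did pass without scrambled replicate 1 (limma, adjusted p = 0.0465) and under 4 other alternatives, so its side of the threshold depends on the processing.

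TLR9 detects unmethylated CpG DNA in endosomes. It read 7.58, 7.43 and 7.44 log2 units in the knockdown arrays, against 7.06, 7.46 and 7.58 in the scrambled arrays. Scrambled replicate 1 was low and the other arrays of both groups lay together. TLR9 had a log2 fold change of 0.12 ± 0.12 (SE; limma, adjusted p = 0.695), and −0.037 without scrambled replicate 1.

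MYD88, the adaptor that links all measured members above it to the IRAK kinases, read 9.54, 9.51 and 9.41 log2 units in the knockdown arrays, against 9.62, 9.78 and 10.00 in the scrambled arrays. The groups did not overlap, and the scrambled arrays were spread more widely, with an SD of 0.07 in knockdown cells and 0.19 in scrambled cells. MYD88 had a log2 fold change of −0.31 ± 0.10 (SE; 95% interval −0.54 to −0.09), which did not pass (limma, adjusted p = 0.131). It was −0.21 without scrambled replicate 3 and −0.40 without scrambled replicate 1. MYD88 passed only with array weights (limma, adjusted p = 0.00947), where the scrambled mean rests mainly on scrambled replicate 2.

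IRAK1, the kinase that IRAK4 phosphorylates in the MYD88 complex, read 8.69, 8.56 and 8.62 log2 units in the knockdown arrays, against 8.43, 8.43 and 8.70 in the scrambled arrays. Scrambled replicate 3 lay above all knockdown arrays and the other scrambled arrays below them. Its log2 fold change was 0.10 ± 0.09 (SE; limma, adjusted p = 0.599). It was 0.19 without scrambled replicate 3 and 0.06 without scrambled replicate 1 or 2.

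**Figure D2:**
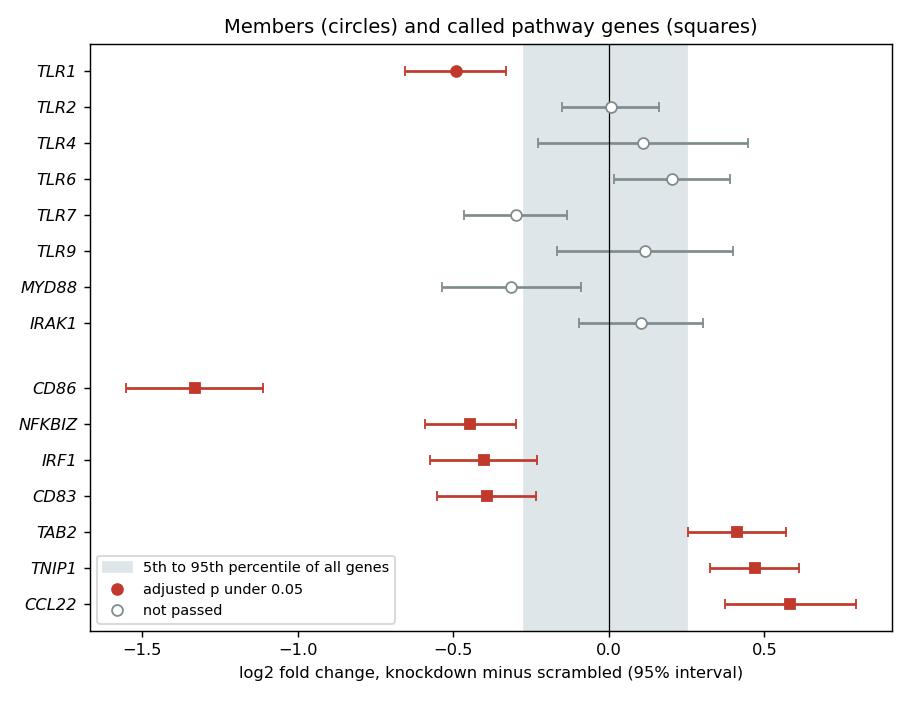
Log2 fold change, knockdown minus scrambled, with its 95% interval for the 8 measured members (circles) and the 7 other pathway genes that passed (squares); filled red symbols have an adjusted p under 0.05, and grey shading spans the 5th to 95th percentile of all genes. TLR1 at −0.49, which passed, and TLR7 at −0.30 and MYD88 at −0.31, which did not, lie outside the shading. TLR2, TLR4, TLR6, TLR9 and IRAK1 lie within it.

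The other genes of the pathway were taken as 81 genes in 9 lists by role, of which 76 were measured. The lists were chosen with earlier results of these data known. Of the 76, 3 rose, 4 fell and 69 did not pass (limma, adjusted over all genes), which is 9.21% called against 3.61% of all genes. Groups did not overlap in 34 of the 76, or 44.7%, against 24.8% of all genes. Their median log2 fold change was −0.0068 and 46.1% lay above 0, against −0.0022 and 49.3% for all genes.

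The lists of other Toll-like receptors, co-receptors and chaperones, other TIR-domain adaptors and other IRAK kinases held no call in limma, and in all but the co-receptor and chaperone list no gene had an unadjusted p under 0.05. Both other measured receptors, TLR3 for double-stranded RNA and TLR8 for single-stranded RNA, read −0.18 log2 units without passing. TLR8 was dim, at percentile 25.8 of the genes by mean signal against 43.9 for TLR3, so its change may be compressed. With 1 array left out, TLR3 ran from −0.28 without scrambled replicate 3 to −0.07 without scrambled replicate 1, and TLR8 from −0.27 to −0.10 without the same arrays. Of 9 co-receptors and chaperones 0 passed in limma, and 4 had an unadjusted p under 0.05, against 18.2% of all genes. CD36, a scavenger receptor that acts with TLR2, read −0.22 ± 0.08 on a dim probe set, and HSP90B1, the chaperone that Toll-like receptors need to fold, read 0.18 ± 0.07 (SE; limma, adjusted p = 0.177 and 0.179). Of 3 other TIR-domain adaptors 0 passed, with TIRAP, which brings MYD88 to TLR2 and TLR4, at 0.12 and SARM1, an NAD-consuming enzyme of neurons, at −0.04. IRAK2, a kinase that acts with IRAK1, read −0.13, and IRAK3, an inhibitor of the complex, read 0.09, and neither passed. IRAK2 read −0.012 without scrambled replicate 1 and −0.21 without scrambled replicate 3.

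Receptors of the interleukin-1 family use the same adaptor. Of 6 measured members of that list 0 passed in limma, 2 had an unadjusted p under 0.05, against 18.2% of all genes, and 5 lay below 0, against 50.7% of all genes, with a median of −0.13 log2 units. IL18RAP, the accessory chain of the interleukin-18 receptor, read 6.42, 6.48 and 6.51 log2 units in the knockdown arrays, against 7.21, 6.76 and 6.83 in the scrambled arrays. IL1RAP, the accessory chain of the interleukin-1 receptor, read 5.85, 6.06 and 6.05 log2 units in the knockdown arrays, against 6.33, 6.24 and 6.46 in the scrambled arrays. Neither gene's groups overlapped, and the log2 fold changes of −0.46 ± 0.11 and −0.36 ± 0.09 (SE) did not pass (limma, adjusted p = 0.0628 and 0.0583).

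**Figure D3:**
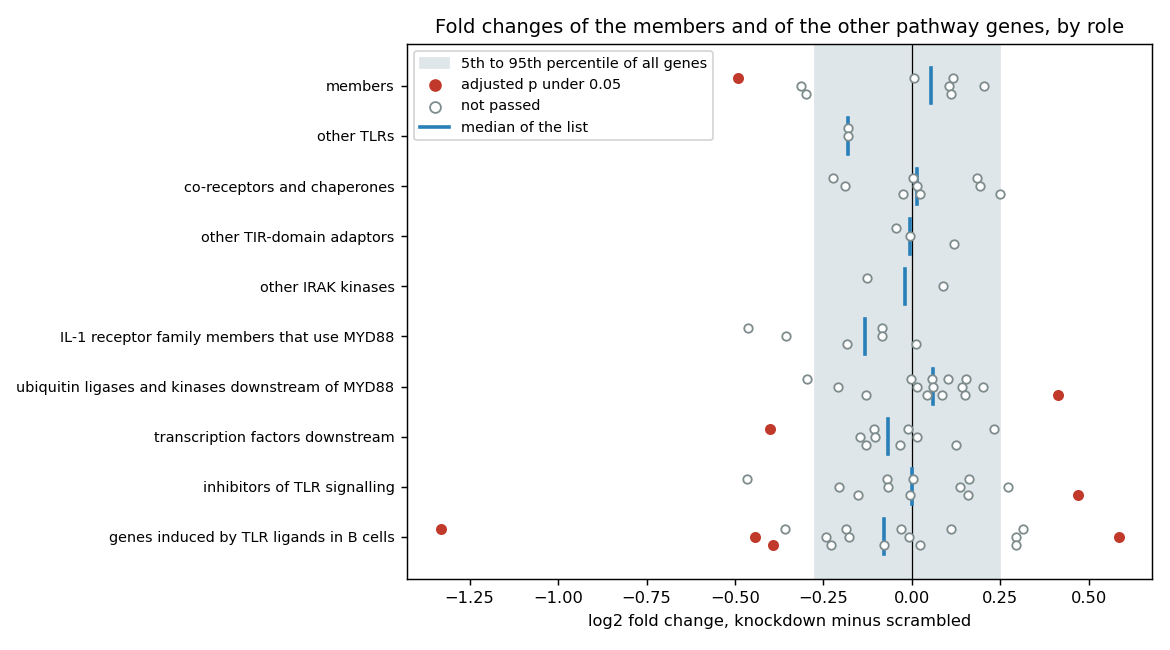
Log2 fold change, knockdown minus scrambled, of each measured gene among the members (top) and in the 9 lists of other pathway genes, with the list median as a blue line; red points have an adjusted p under 0.05 and grey shading spans the 5th to 95th percentile of all genes. The 7 calls outside the members lie in the 4 lowest lists, 4 of them among genes induced by receptor ligands.

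Downstream of MYD88, 1 of 15 ubiquitin ligases and kinases rose and 0 fell, against 1.92% and 1.69% of all genes. Of the 15, 11 lay above 0, against 49.3% of all genes, and 1 call says little of the list. The riser was TAB2, the adaptor that ties MAP3K7 to ubiquitin chains made by TRAF6. TAB2 read 9.35, 9.51 and 9.45 log2 units in the knockdown arrays, against 9.09, 8.99 and 8.99 in the scrambled arrays. It had a log2 fold change of 0.41 ± 0.07 (SE; limma, adjusted p = 0.0167). The call was lost without knockdown replicate 2 or 3 and without scrambled replicate 2, at adjusted p up to 0.0922 (limma). It was also lost with all deposited probe sets and with the replicate number as a block.

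Of 10 transcription factors, IRF1, an interferon regulatory factor that acts downstream of MYD88 in mouse cells, fell and 0 rose. Among all genes 1.69% fell and 1.92% rose, and 1 call says little of the list. IRF1 read 8.22, 8.25 and 8.06 log2 units in the knockdown arrays, against 8.51, 8.57 and 8.66 in the scrambled arrays, without overlap. The log2 fold change was −0.40 ± 0.08 (SE; limma, adjusted p = 0.0256). The call was lost without any 1 of the 3 knockdown replicates and without scrambled replicate 2, at adjusted p up to 0.109 (limma). It was also lost with all deposited probe sets and with the replicate number as a block.

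Of 12 inhibitors 1 rose and 0 fell, against 1.92% and 1.69% of all genes, and 1 call says little of the list. TNIP1, a ubiquitin-binding partner of the deubiquitinase TNFAIP3, read 9.47, 9.42 and 9.44 log2 units in the knockdown arrays, against 9.03, 8.93 and 8.96 in the scrambled arrays. Both groups were tight and far apart, and the log2 fold change of 0.47 ± 0.06 (SE; limma, adjusted p = 0.00722) passed in every refit and with each array left out, but lies below a limit of 0.5 log2 units. A pair of inhibitors was singled out after its values were seen. TNFAIP3 read 0.27 ± 0.06 and just missed the threshold (limma, adjusted p = 0.0506), and NFKBIA, which holds NF-kappaB in the cytoplasm, read −0.47 ± 0.13 (limma, adjusted p = 0.0849). TNFAIP3 passed with another quantile normalisation, brighter genes only, an intensity trend or array weights, and NFKBIA with array weights or without scrambled replicate 1 (limma, lowest adjusted p = 0.00418 and 0.00368). The scrambled arrays of NFKBIA, at 10.48, 10.65 and 11.03 log2 units, were spread more widely than the knockdown arrays, at 10.30, 10.26 and 10.20.

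Genes that receptor ligands induce in B cells moved in both directions. Of 17 measured, 1 rose, 3 fell and 13 did not pass, which is 23.5% called against 3.61% of all genes. Groups did not overlap in 11 of the 17, 7 lower and 4 higher, against 24.8% of all genes. This list was also chosen with earlier results of these data known, so the shares describe it and are not a test. CD86, a costimulatory ligand for T cells, read 6.86, 7.10 and 7.06 log2 units in the knockdown arrays, against 8.35, 8.18 and 8.49 in the scrambled arrays. Its log2 fold change of −1.33 ± 0.10 (SE), or 39.8% of the scrambled signal, was the lowest of all genes tested (limma, adjusted p = 0.000834).

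NFKBIZ, an inducible nuclear partner of NF-kappaB, read 7.69, 7.66 and 7.76 log2 units in the knockdown arrays, against 8.18, 8.10 and 8.16 in the scrambled arrays. Its log2 fold change was −0.44 ± 0.06 (SE; limma, adjusted p = 0.00979). The call was lost without knockdown replicate 1 or 2, at adjusted p up to 0.0647. CD83, a surface protein of activated B cells and dendritic cells, read 9.29, 9.36 and 9.22 log2 units in the knockdown arrays, against 9.71, 9.60 and 9.73 in the scrambled arrays. Neither NFKBIZ nor CD83 had overlapping groups, and CD83 had a log2 fold change of −0.39 ± 0.07 (SE; limma, adjusted p = 0.0208). The call of CD83 was lost without any 1 of the 3 knockdown replicates and without scrambled replicate 2, at adjusted p up to 0.1002 (limma). It was also lost with all deposited probe sets and with the replicate number as a block.

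CCL22, a chemokine that draws T cells through CCR4, rose. It read 9.62, 9.69 and 9.69 log2 units in the knockdown arrays, against 8.97, 8.99 and 9.29 in the scrambled arrays. Scrambled replicate 3 was the highest of its group and still below all knockdown arrays. CCL22 had a log2 fold change of 0.58 ± 0.09 (SE; limma, adjusted p = 0.0143), and the call was lost without any 1 of the 3 knockdown replicates, without scrambled replicate 2 and with all deposited probe sets, at adjusted p up to 0.0772.

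Promoter letters are shown for MYD88, a member whose groups did not overlap, and for NFKBIZ, which fell, because each holds a match to a motif of this pathway's transcription factors. The sequences are from RefSeq (GRCh38.p14) and cover the 250 bases before the annotated start, written 5′ to 3′ on the gene's strand. The motifs searched on both strands were an interferon response element, read as GAAA, any 2 bases and GAAA, and an NF-kappaB element, read as GGG, any 2 bases and TTTCC. They do not overlap here, and capitals mark the matches. Of the members, 7 had an entry in the promoter table (TLR2, TLR4, TLR6, TLR9, MYD88, IRAK1 and IRAK4). TLR1, TLR7 and TLR10 were not matched. The interferon motif was in 1 of the 7, MYD88, and in 3.07% of 27303 promoters of the same length, and the NF-kappaB motif was in 0 of the 7 and in 1.73% of all promoters. Of the other pathway genes that passed, CCL22, CD83, CD86, IRF1, TAB2 and TNIP1 held a match to neither motif in the same window. Only these exact patterns were searched, so other forms of either element would be missed. A match describes letters and is not a measured binding site.
MYD88 promoter, chr3:38138411-38138660, plus strand: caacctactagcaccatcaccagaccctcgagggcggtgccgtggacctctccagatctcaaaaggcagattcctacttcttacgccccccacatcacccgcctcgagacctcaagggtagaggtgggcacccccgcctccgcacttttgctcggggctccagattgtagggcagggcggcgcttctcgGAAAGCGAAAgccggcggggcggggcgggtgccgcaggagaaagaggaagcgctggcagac
NFKBIZ promoter, chr3:101827740-101827989, plus strand: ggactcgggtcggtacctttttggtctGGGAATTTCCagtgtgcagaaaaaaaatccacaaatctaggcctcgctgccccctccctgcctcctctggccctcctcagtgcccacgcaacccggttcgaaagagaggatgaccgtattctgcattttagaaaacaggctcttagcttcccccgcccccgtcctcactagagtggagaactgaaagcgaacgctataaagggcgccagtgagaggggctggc

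The markers of other cell types were set beside these values. Of 26 measured markers of B, myeloid, plasmacytoid dendritic, T and NK cells, 0 passed in either direction (limma, adjusted over all genes). As 3.61% of all genes were called, 0 calls among so few markers says little. An unadjusted p under 0.05 (limma) was found for 5 of the 26, against 18.2% of all genes. Groups did not overlap in 8 of the 26, or 30.8%, against 24.8% of all genes. The mean signal of the 10 monocyte, macrophage and neutrophil markers was 5.10 to 5.13 log2 units in the knockdown arrays and 5.10 to 5.25 in the scrambled arrays. ITGAM, which myeloid and some B cells carry, read −0.60 ± 0.15 log2 units (SE; limma, adjusted p = 0.0659). CD14 of the same list read −0.19 ± 0.07 log2 units (SE; limma, adjusted p = 0.224), and in both genes the groups did not overlap. The mean signal of 3 plasmacytoid dendritic cell markers was 5.04 to 5.16 log2 units in the knockdown arrays and 5.22 to 5.36 in the scrambled arrays. These dendritic cells carry TLR7 and TLR9, and of their markers CLEC4C lay at percentile 13.6 of the genes by mean signal. CLEC4C read −0.018 ± 0.067 and NRP1 −0.035 ± 0.098 log2 units (SE), both with overlapping groups. IL3RA, an interleukin-3 receptor chain and the brightest of the 3, read −0.48 ± 0.11 log2 units (SE). Its groups did not overlap but it did not pass (limma, adjusted p = 0.0543), and the lower mean of this list comes mainly from that gene. Its part in the values of TLR1 and TLR7 was not tested. The 6 T and NK cell markers averaged 5.54 to 5.68 log2 units in the knockdown arrays and 5.51 to 5.56 in the scrambled arrays, which overlap. Within that list NKG7 read 0.25 ± 0.06 (SE; limma, adjusted p = 0.0752) and NCAM1 −0.07, both without overlap. The 7 B cell markers averaged 10.59 to 10.60 log2 units in the knockdown arrays, within the 10.57 to 10.61 of the scrambled arrays. Single B cell markers did differ without overlap and without passing. PAX5 read −0.21 ± 0.07 (SE; limma, adjusted p = 0.162), while MS4A1 read 0.07 and CD22 0.10.

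**Figure D4:**
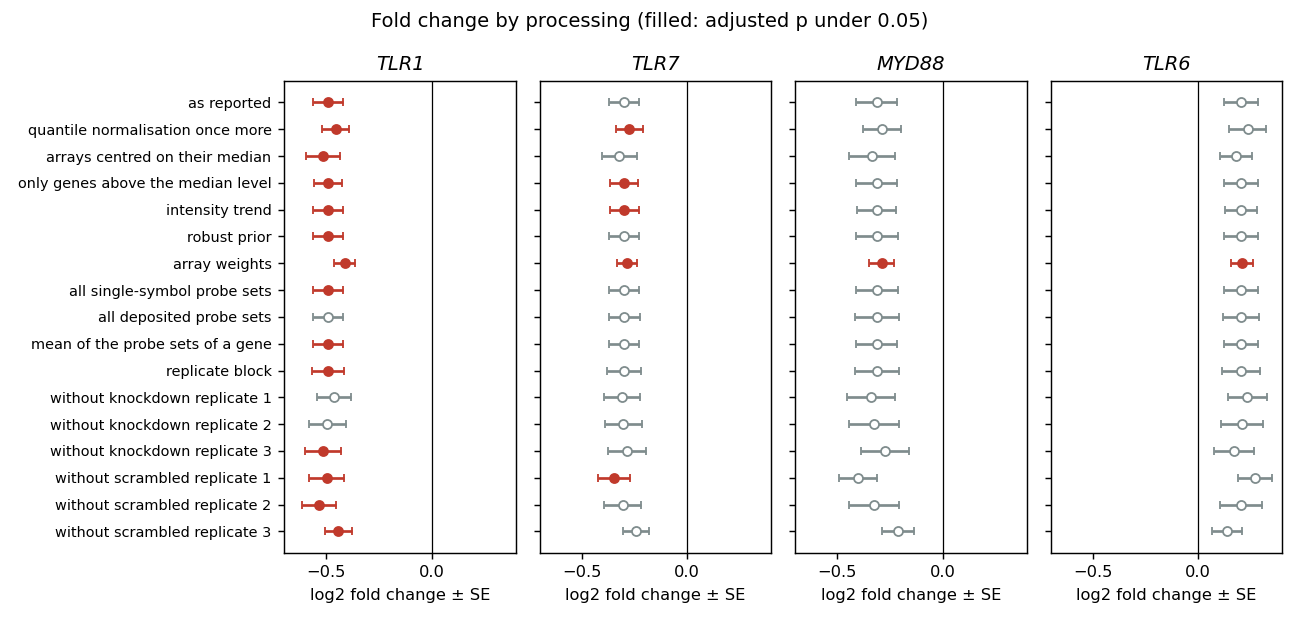
Log2 fold change ± SE of TLR1, TLR7, MYD88 and TLR6 (columns) as reported and under each alternative processing (rows), with filled red points at an adjusted p under 0.05. TLR1 stays between −0.53 and −0.41, TLR7 and MYD88 stay below 0, and TLR6 stays above 0.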

How the data were processed

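Per the labels, each sample's total RNA was labelled with biotin and read on its own Affymetrix array, with a whole-transcript labelling kit. The authors' deposited log2 values come from RMA, per the submitters' processing notes, with version and library files not given in the sources used here. RMA corrects background, normalises by quantiles and summarises probes, so it compresses changes near background and hides shifts shared by most genes. Values ran from 2.20 to 14.3 over 32321 probe sets and were used as deposited. Probe sets were named through the platform annotation: 19158 had 1 symbol, 1388 several and 11775 none. Of those with 1 symbol, 19128 matched RefSeq (GRCh38.p14) by Entrez identifier. The brightest probe set per gene left 18404 genes, with no filter on dim ones.

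Groups came from the labels. The knockdown arrays were set against the scrambled arrays by limma 3.58.1 under R 4.3.3 (lmFit and eBayes), two-sided and without covariates. P-values were adjusted by Benjamini-Hochberg over all genes, at a threshold of 0.05. The prior had 4.82 degrees of freedom. The test was also run on simulated data, with independent normal noise at each gene's own spread and 200 genes changed. It recovered 57.2% of changes of 0.5 log2 units and 95.2% of changes of 1. A change of 0.5 log2 units or less can therefore be missed. The 3 arrays per group limit the precision: an exact permutation of 1 gene cannot go below p = 0.1. The members and lists were chosen with earlier results of these data known. The text names all members, UGT2B17, every listed pathway gene that passed and, in lists with none, the 2 with the smallest p; others are named as chosen after their values were seen. The alternatives were another quantile normalisation, median centring, brighter genes only, an intensity trend or robust prior, array weights, other sets of probe sets, the mean of a gene's probe sets, a replicate block, leaving out each array and other thresholds.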

Additional observations from a re-analysis of the deposited data

How the results depend on the processing

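UGT2B17 kept its direction and its call under all alternatives that could be run, from −0.71 to −0.50 log2 units; it is below the brightness filter and had no value there. TLR1 kept its direction under all alternatives, from −0.53 to −0.41. TLR7, MYD88 and TLR6 also kept their directions. Members called, 1 as reported, were 2 with another quantile normalisation, with brighter genes only, with an intensity trend and at an adjusted p under 0.1. They were 4 with array weights. These weights were 6.12 for scrambled replicate 2, against 0.549 and 0.2496 for scrambled replicates 1 and 3. The scrambled mean in that fit therefore rests mainly on 1 array. Members called were 0 with all deposited probe sets or when calls also needed a change of 0.5 log2 units. Leaving out 1 array gave 0 to 2. Other pathway genes called, 7 as reported, were 11 with brighter genes only and with an intensity trend, 25 with array weights, 3 with all deposited probe sets, 14 at an adjusted p under 0.1 and 2 with the fold change limit. Leaving out 1 array gave 2 to 10. All genes called, 665 as reported, were 3511 with array weights, 165 with all deposited probe sets, 1207 at an adjusted p under 0.1 and 237 with the fold change limit. Leaving out 1 array gave 152 to 759.

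With the replicate number as a block, 367 genes, 4 other pathway genes and 1 member were called, and KLF3, TAB2, IRF1 and CD83 did not pass. The labels do not say that a number marks a shared day, so the numbers were not taken as pairs. Same-numbered arrays did not deviate together (r = −0.05, −0.07 and −0.03 for numbers 1, 2 and 3). The sign of TLR2 turned to −0.013 with another quantile normalisation, −0.018 with median centring and −0.082 with array weights, and ran from −0.023 to 0.060 with 1 array left out. Without scrambled replicate 1, TLR4 read −0.016 and TLR9 −0.037, and without scrambled replicate 3 IRAK3 read −0.019. The range with 1 array left out was −0.016 to 0.26 for TLR4, −0.037 to 0.22 for TLR9 and −0.019 to 0.19 for IRAK3. None of these 4 genes was called under any alternative. Median centring moved every gene by the same −0.024 log2 units, which is larger in size than the 0.0060 of TLR2 as reported. Another quantile normalisation moved the median of all genes by 0.0027. The cause of the other changes was not tested. The members TLR2 and TLR4 lie at low signal, which limits what can be read of them.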
